A study of Oryctolagus cuniculus with 6 samples.

Results

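The 35 genes described here are genes of vessel growth, hypoxia, wound healing and inflammation in injured rabbit trachea, out of 16815 genes counted in the series. They were taken from the authors' deposited enrichment table of Gene Ontology terms. The 43 genes listed there under 7 terms (angiogenesis, positive regulation of angiogenesis, negative regulation of endothelial cell apoptotic process, response to hypoxia, wound healing, inflammatory response and cellular response to interleukin-1) were joined. The 8 of them that are also listed under proteolysis, cell adhesion or 3 matrix and cartilage terms were then left out. Bulk RNA was sequenced from trachea of wild-type rabbits (Oryctolagus cuniculus) on day 14. The hydrogel group had an epithelial injury treated with LA@PA-TA@C, a Janus hydrogel (a water-rich polymer material whose faces differ). The blank group had a defect of the epithelium and received no hydrogel. Each group holds 3 libraries, which the design text calls biological replicates. Both groups were injured, and libraries of uninjured trachea were not analysed here, so every difference is between injured tracheae with and without the hydrogel.

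Angiogenesis is the sprouting of new vessels from existing ones: growth factors act on receptors of endothelial cells, and survival signals keep those cells from apoptosis. Tissue short of oxygen stabilises hypoxia-inducible transcription factors, which switch on genes of vessel growth and glycolysis. Interleukin-1 is a cytokine released early after damage, and cells that sense it make chemokines and adhesion molecules that draw leukocytes in. In an airway wound these programmes run together in granulation tissue, the vascular and inflamed tissue that fills a defect before epithelium covers it.

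The deposited tables pair none of the identifiers with a gene symbol, and 0 of them matched the reference gene table. Roles below are therefore those given by the terms under which the authors list a gene, and single ligands, receptors or targets are not named. Markers of endothelium, leukocytes or tracheal epithelium could not be looked up for the same reason, so neither the labelled tissue nor the vessel and inflammation labels were checked against markers. Levels are CPM, a gene's counts scaled to the same total in every library. They are not divided by gene length, so a level is compared between libraries and not between genes. In whole tissue, fewer cells of a type and less RNA per cell cannot be told apart.

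Library totals were 22309570, 23095010 and 16827419 counts in hydrogel replicates 1, 2 and 3, and 23390531, 21081843 and 17292087 counts in blank replicates 1, 2 and 3. Of 13598 genes with enough counts to test, 610 were higher and 255 lower in hydrogel (edgeR's quasi-likelihood test at an adjusted p under 0.05, after Benjamini and Hochberg). The median log2 fold change over all of them was -0.03. The authors' lists were built from genes that already differed between these same libraries. The lower level of the members in hydrogel, and every count of members that passed, is therefore what the choice of members used and no separate evidence of a change.

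All 35 members were tested, and the log2 fold change of hydrogel over blank was negative for each of them. Its median was -1.66 and its range from -5.44 to -1.02. In the DESeq2 fit the member nearest 0 also had -1.02. Members thus lie nearer to 0 than the limit of the authors' deposited table, which is given further below. Whether another limit in the choice of genes set this end of the range was not tested. Of the 35, 13 fell in hydrogel and 22 did not pass, where 1.88% of all genes tested were called lower. None was called higher (0 by edgeR, DESeq2 and limma-voom), where 4.49%, 8.75% and 3.05% of all genes were by these tools. Together the members held 0.236 ± 0.0756% of all counts in hydrogel and 0.740 ± 0.173% in blank (SD, n = 3 each). For 34 members every hydrogel library was below every blank library, against 12.6% of all genes tested. The exception, a gene of angiogenesis and heart development, had 72.7, 48.2 and 52.1 CPM in hydrogel replicates 1, 2 and 3, against 127, 70.5 and 161 CPM in blank replicates 1, 2 and 3, so that hydrogel replicate 1 lay above blank replicate 2.

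**Figure D1:**
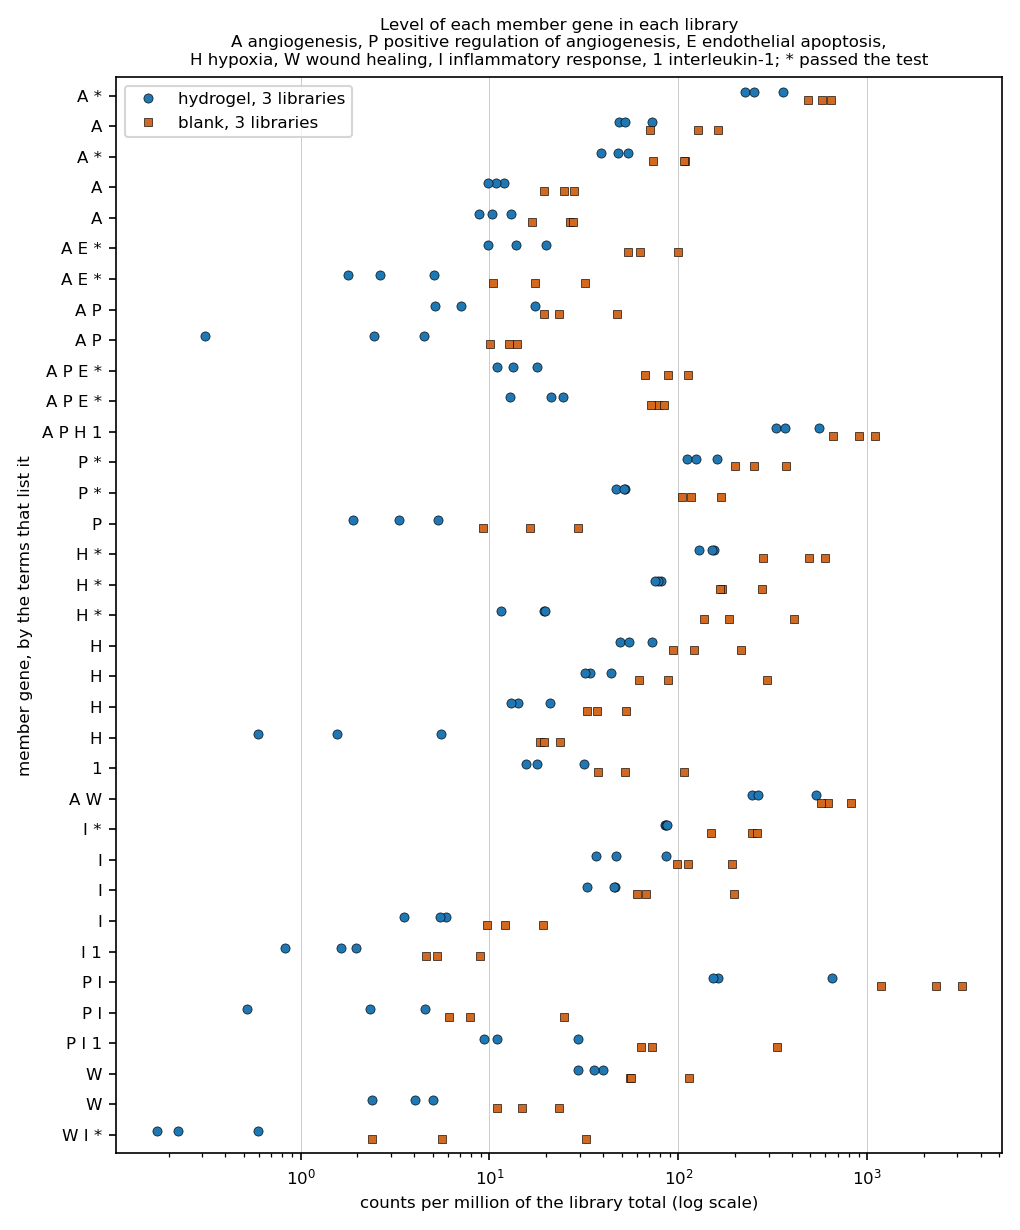
Level of each of the 35 members in each of the 6 libraries, in CPM on a log axis. Circles are hydrogel libraries and squares blank libraries, rows are labelled by the terms that list the gene, and an asterisk marks the 13 members that fell. For 34 members all circles lie left of all squares, and for several the 3 squares spread over a wide range.

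The count of members that fell was 0 without hydrogel replicate 2 and 0 without hydrogel replicate 3 (edgeR), where 0.0144% and 0.0286% of all genes were called lower. At an unadjusted p under 0.05 it was 30 members in each of these fits, where 6.42% and 7.48% of all genes were lower, and 35 with all 6 libraries, where 10.7% were. At the adjusted limit the count was 7 without hydrogel replicate 1, 8 without blank replicate 1 and 6 without blank replicate 3, where 0.755%, 0.986% and 0.731% of all genes were called lower. The count was 12 with limma-voom, where 1.43% of all genes were called lower. It was 35 with the DESeq2 test, where 5.62% were. DESeq2 is also the tool of the authors' deposited comparison, so that count is no separate evidence beside the choice of members. For the 15 members that the authors' deposited table holds, the DESeq2 log2 fold changes equalled theirs to 2 decimals.

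Endothelial survival was the term with the lowest median log2 fold change, -2.56. All 4 members listed for holding back apoptosis of endothelial cells fell, where 1.88% of all genes tested were called lower. This count was 0 without hydrogel replicate 2 and 0 without hydrogel replicate 3, where 0.0144% and 0.0286% of all genes were called lower. All 4 are also listed for angiogenesis. Their geometric mean level was 10.7 ± 3.02 CPM in hydrogel and 55.9 ± 17.0 CPM in blank (SD, n = 3 each), so that hydrogel libraries held 19.2% of the blank level. The member that adds the AGE-RAGE pathway, a signaling route from glycated proteins, had 17.8, 13.3 and 11.0 CPM in the hydrogel libraries and 87.9, 66.5 and 113 CPM in the blank libraries. Its log2 fold change was -2.74 ± 0.33 (approximate SE), and its lowest blank library stood 3.75 times above its highest hydrogel library. The member that adds receptor internalization, the uptake of cell-surface receptors, had 21.2, 12.9 and 24.6 CPM in hydrogel and 77.6, 71.8 and 84.4 CPM in blank. Its blank libraries were the most alike of any member, with the highest 1.18 times the lowest, and its log2 fold change was -2.05 ± 0.31.

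The other 2 genes of this term are listed for angiogenesis and endothelial survival alone. One had 19.8, 9.83 and 13.8 CPM in hydrogel and 62.7, 53.9 and 99.5 CPM in blank. The second had 5.07, 2.64 and 1.78 CPM in hydrogel and 17.3, 10.4 and 32.2 CPM in blank. Both were highest in blank replicate 3 and lowest in hydrogel replicates 2 or 3, and neither showed overlap between groups.

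Angiogenesis holds 13 members, of which 6 fell, where 1.88% of all genes tested were called lower. The 6 are the 4 survival genes and 2 others. The geometric mean over the 13 was 27.3 ± 4.92 CPM in hydrogel and 82.0 ± 16.1 CPM in blank (SD, n = 3 each) and the median log2 fold change was -1.23. A gene listed for angiogenesis, endothelial cell migration and PI3K-Akt signaling, a growth and survival cascade below many receptors, fell, with 358, 225 and 251 CPM in hydrogel and 645, 577 and 487 CPM in blank. So did one listed with heart development and receptor internalization, with 54.3, 48.0 and 38.7 CPM in hydrogel and 73.3, 108 and 107 CPM in blank. These 2 had log2 fold changes of -1.09 and -1.07, among the smallest of all members, with standard errors of 0.24 and 0.22, also among the smallest.

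The 7 angiogenesis members that did not pass had log2 fold changes from -2.38 to -1.02. The gene at -1.02, also listed for wound healing and as a cell adhesion molecule, had 532, 246 and 264 CPM in hydrogel and 618, 570 and 824 CPM in blank. Hydrogel replicate 1 was close to the blank libraries for this gene, while replicates 2 and 3 were well below them. A gene of eye morphogenesis had 12.0, 10.8 and 9.81 CPM in hydrogel and 19.4, 28.1 and 24.9 CPM in blank, and a gene with no further term had 10.3, 12.9 and 8.80 CPM in hydrogel and 26.8, 16.7 and 27.8 CPM in blank.

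Positive regulation of angiogenesis, the genes that promote sprouting, holds 11 members, and 4 fell, where 1.88% of all genes tested were called lower. The geometric mean of the 11 was 22.9 ± 6.09 CPM in hydrogel and 92.6 ± 23.7 CPM in blank (SD, n = 3 each). Their median log2 fold change was -2.38. Besides 2 of the survival genes, 2 more fell. One, a gene of focal adhesion and PI3K-Akt signaling, had 52.0, 46.6 and 51.2 CPM in hydrogel and 168, 105 and 117 CPM in blank. The second, of endothelial migration and AGE-RAGE signaling, had 161, 111 and 125 CPM in hydrogel and 252, 372 and 200 CPM in blank, and was the only one of this term with its highest value in blank replicate 2.

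The 7 members of this term that did not pass had log2 fold changes from -3.32 to -1.17. The gene shared with inflammatory response and no other term had 654, 161 and 153 CPM in hydrogel and 2301, 1177 and 3161 CPM in blank. Hydrogel replicate 1 was 4.28 times the lowest hydrogel library here, and the log2 fold change of -2.88 ± 0.70 became -3.90 without that library. A gene of angiogenesis, endothelial migration and PI3K-Akt signaling that is not in the AGE-RAGE list had 0.314, 4.50 and 2.44 CPM in hydrogel, against 10.0, 12.7 and 14.1 CPM in blank. The first of these values is 7 counts, and the hydrogel libraries of this gene were the furthest apart of any member, by 14.4 times, and its log2 fold change of -2.38 became -3.18 without hydrogel replicate 2. Its counterpart that is in the AGE-RAGE list had 17.3, 7.06 and 5.17 CPM in hydrogel and 19.5, 23.2 and 47.1 CPM in blank, with hydrogel replicate 1 just under the lowest blank library. Without that hydrogel library its log2 fold change of -1.67 became -2.35. A gene of heart development and receptor internalization had 3.32, 1.91 and 5.35 CPM in hydrogel and 29.4, 9.20 and 16.5 CPM in blank, and its log2 fold change of -2.48 became -1.89 without blank replicate 1.

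ENSOCUG00000017741 was the member under the most terms, 4: angiogenesis, its positive regulation, response to hypoxia and cellular response to interleukin-1. It had 558, 327 and 366 CPM in hydrogel replicates 1, 2 and 3, against 1096, 662 and 905 CPM in blank replicates 1, 2 and 3. No hydrogel library reached a blank one, but the lowest blank library was only 1.19 times the highest hydrogel library, the log2 fold change of -1.17 ± 0.32 is among the smaller ones, and the gene did not pass. Without blank replicate 2, its lowest blank library, it passed at -1.41, where 1.76% of all genes were called lower. In every other fit that left out 1 library it did not pass. By number of terms, the 22 members under 1 term had a median of -1.42, the 9 under 2 terms -2.38 and the 3 under 3 terms -2.74.

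Response to hypoxia holds 8 members, 7 of them under this term alone, so it is the most separate of the 7 lists. Of the 8, 3 fell, where 1.88% of all genes tested were called lower. The median log2 fold change was -1.60, and the geometric mean was 41.0 ± 7.74 CPM in hydrogel and 150 ± 31.4 CPM in blank (SD, n = 3 each). The gene also listed for PI3K-Akt signaling had 19.5, 19.6 and 11.5 CPM in hydrogel and 411, 137 and 185 CPM in blank. Its log2 fold change of -3.96 ± 0.52 was second in size among the 35 members, and its lowest blank library was 7.01 times its highest hydrogel library. Without blank replicate 1 the log2 fold change was -3.27.

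The second hypoxia gene that fell is listed for dilated cardiomyopathy, malaria and AGE-RAGE signaling, and had 80.5, 78.0 and 75.6 CPM in hydrogel and 171, 167 and 277 CPM in blank. The third has no further term and had 129, 154 and 151 CPM in hydrogel and 598, 279 and 492 CPM in blank. In both the hydrogel libraries were nearly level and the blank libraries were not. A hypoxia gene with no further term that did not pass showed the same contrast in spread, with 34.0, 32.1 and 44.2 CPM in hydrogel and 293, 88.3 and 61.9 CPM in blank. Blank replicate 1 stood far above the other 2, and the log2 fold change was -2.10 with it and -1.0001 without it.

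The hypoxia gene listed for phosphatidylinositol 3-kinase signaling differed the other way in spread. It had 5.56, 1.56 and 0.594 CPM in hydrogel and 18.6, 19.4 and 23.7 CPM in blank, so the blank libraries were close together and the hydrogel libraries spanned 9.35 times. Its log2 fold change was -3.06 ± 0.78, did not pass, and was -4.29 without hydrogel replicate 1. The last 2 hypoxia genes had log2 fold changes of -1.35 and -1.42: one had 72.1, 49.1 and 54.7 CPM in hydrogel and 93.5, 121 and 214 CPM in blank, and the heart development gene had 20.9, 14.1 and 13.1 CPM in hydrogel and 37.0, 32.6 and 52.6 CPM in blank.

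Wound healing holds 4 members, of which 1 fell, where 1.88% of all genes tested were called lower. The geometric mean of the 4 was 15.4 ± 1.88 CPM in hydrogel and 53.2 ± 21.2 CPM in blank (SD, n = 3 each). The one that fell is shared with inflammatory response and had 0.224, 0.173 and 0.594 CPM in hydrogel and 2.39, 5.60 and 32.6 CPM in blank. Its log2 fold change of -5.44 ± 1.24 is the largest of all members and rests on 5, 4 and 10 counts in the hydrogel libraries. The size depends in part on 1 blank library: without blank replicate 3 the log2 fold change was -3.53 and the gene did not pass. Only its hydrogel replicate 3 was above the filter level of 0.461 CPM, so it entered the tested set through its blank counts, while 33 of the 35 members were above that level in all hydrogel libraries. The ECM-receptor gene of the term had 29.4, 40.0 and 35.5 CPM in hydrogel and 113, 55.3 and 56.1 CPM in blank. A gene with no further term had 5.02, 4.03 and 2.38 CPM in hydrogel and 10.9, 14.9 and 23.3 CPM in blank. Neither passed.

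Inflammatory response holds 9 members, of which 2 fell, the wound healing gene above and 1 more. Of all genes tested, 1.88% were called lower. The geometric mean was 14.7 ± 5.04 CPM in hydrogel and 59.0 ± 23.6 CPM in blank (SD, n = 3 each), 25.0% of the blank level. The second gene that fell had 85.2, 86.3 and 87.2 CPM in hydrogel and 246, 148 and 261 CPM in blank. Its hydrogel libraries were the most alike of any member, within 1.02 times. Of 3 further genes listed for inflammation alone, none of which passed, the first had 85.9, 36.4 and 46.7 CPM in hydrogel and 192, 112 and 97.8 CPM in blank. Another had 46.3, 32.9 and 45.7 CPM in hydrogel and 67.6, 196 and 60.1 CPM in blank, and without blank replicate 2 its log2 fold change of -1.35 became -0.76. The last had 5.87, 5.50 and 3.51 CPM in hydrogel and 9.70, 12.1 and 19.2 CPM in blank.

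Several inflammation genes were far higher in blank replicate 3 than in the other blank libraries. ENSOCUG00000011835, listed for positive regulation of angiogenesis, inflammatory response and cellular response to interleukin-1, had 29.5, 9.40 and 10.9 CPM in hydrogel replicates 1, 2 and 3, against 63.4, 72.1 and 332 CPM in blank replicates 1, 2 and 3. The groups did not overlap, but its log2 fold change of -3.32 ± 0.81 did not pass and was -2.04 without blank replicate 3. The inflammation gene that promotes angiogenesis and cell migration had 4.57, 0.520 and 2.32 CPM in hydrogel and 6.11, 7.87 and 24.8 CPM in blank. Its log2 fold change of -2.46 ± 0.93 did not pass and was -1.50 without blank replicate 3.

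Cellular response to interleukin-1 holds 4 members, and 0 of them fell by edgeR, where 1.88% of all genes tested were called lower. At an unadjusted p under 0.05 all 4 were lower, as were all 35 members, where 10.7% of all genes were. By the other tools, 4 passed with DESeq2, which is the tool of the authors' own comparison, and 0 with limma-voom. Of all genes, 5.62% and 1.43% were called lower by these tools. The geometric mean was 24.1 ± 9.35 CPM in hydrogel and 85.6 ± 41.0 CPM in blank (SD, n = 3 each). By library it was 34.9, 18.7 and 18.7 CPM in hydrogel and 61.6, 62.3 and 133 CPM in blank, the widest relative spread of the 7 lists in both groups. Besides the 2 genes named by identifier, a gene of cell migration had 31.7, 15.6 and 17.9 CPM in hydrogel and 37.7, 51.9 and 107 CPM in blank, at a log2 fold change of -1.66 that became -1.04 without blank replicate 3. The gene shared with inflammation alone had 1.97, 1.65 and 0.832 CPM in hydrogel and 4.62, 5.27 and 8.91 CPM in blank. In all 4 the highest hydrogel value was in replicate 1.

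**Figure D2:**
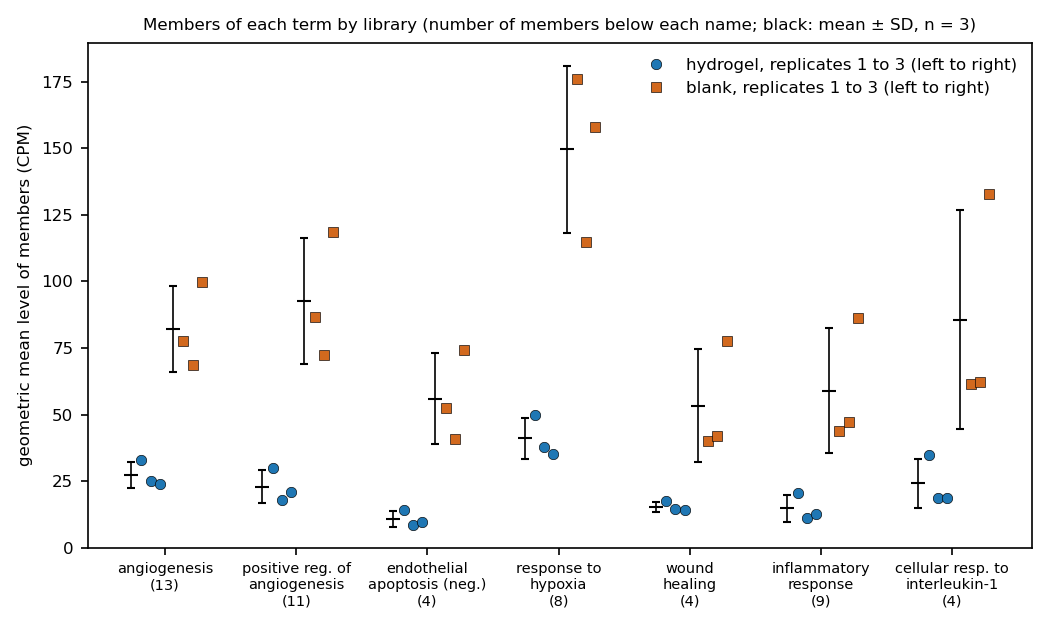
Geometric mean level of the members of each term, in CPM, with 1 point per library (circles hydrogel, squares blank, replicates 1 to 3 from left to right) and black bars for the mean ± SD of 3 libraries. Every hydrogel point lies below every blank point of its term, blank replicate 3 stands highest in 6 of the 7 terms, and the hypoxia genes are highest in blank replicate 1.

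The lists overlap unevenly. Of the 35 members, 22 are under 1 of the 7 terms, 9 under 2, 3 under 3 and 1 under 4. Angiogenesis and its positive regulation share 5 genes, 38.5% of the first list and 45.5% of the second. Inflammatory response shares 3 genes with positive regulation of angiogenesis, 33.3% of the inflammation list and 27.3% of the other, and 0 with angiogenesis itself. Response to hypoxia shares only ENSOCUG00000017741 with any other list. Among terms that the choice did not use, AGE-RAGE signaling and heart development each list 6 members, PI3K-Akt signaling and blood vessel endothelial cell migration 5 each, and receptor internalization and positive regulation of cell migration 4 each.

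In PI3K-Akt signaling 3 of the 5 members fell, as did 7 of the other 22 genes the authors list for that pathway. Their medians were -1.67 and -1.64, and 1.88% of all genes tested were called lower. For AGE-RAGE signaling it was 3 of 6 members and 3 of 7 other genes, at medians of -2.21 and -1.62. These further genes come from the same choice by the authors, so they too were picked on these libraries. Some of them are also among the left-out genes described next. The 8 genes of the 7 terms that were left out for their matrix, adhesion or proteolysis terms had a median log2 fold change of -1.55, and 1 of them fell, a gene of endothelial survival. The choice has a threshold in part: the authors' deposited table of differential genes goes no nearer to 0 than a log2 fold change of 2 in either direction. It holds 15 of the 35 members, with their log2 fold changes from -5.45 to -2.05, and the nearest member outside it had -1.74 in the DESeq2 fit. Among the 15 members inside, 6 fell by edgeR, and among the 20 outside, 7 fell.

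**Figure D3:**
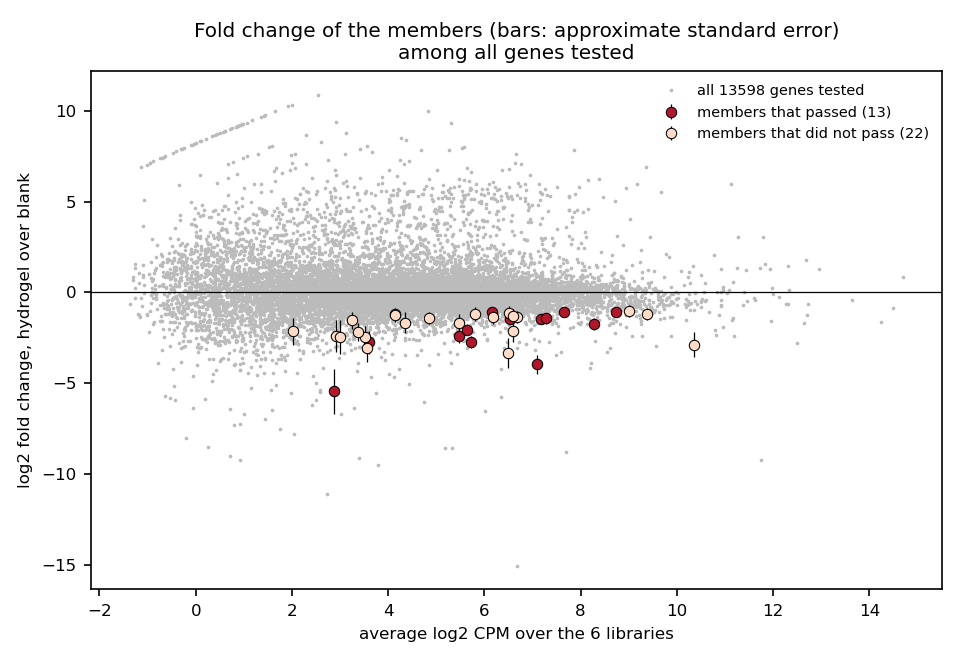
Log2 fold change of hydrogel over blank against the average log2 CPM of the 6 libraries, for all 13598 genes tested (grey), the 13 members that fell (dark) and the 22 that did not pass (light), with bars for the approximate standard error. All members lie below 0, and members that fell and members that did not are found at similar fold changes, with medians of -1.75 and -1.59.

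The 13 that fell had a median log2 fold change of -1.75, and their highest blank library was at the median 1.76 times the lowest. The 22 that did not pass had a median of -1.59, and the same ratio was 2.09. Within hydrogel, the members' median SD of log2(CPM + 1) over the 3 libraries was 0.349, close to the 0.344 of all genes tested. Within blank it was 0.467 for the members and 0.451 for all genes. For the 242 other genes called lower, which all passed the test, it was lower, at 0.224 in hydrogel and 0.321 in blank. By term the members' median SD was widest for inflammatory response in blank, at 0.364 in hydrogel and 0.727 in blank. For angiogenesis it was 0.405 in hydrogel and 0.367 in blank.

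The members also varied together within each group. In hydrogel, 25 of 35 members (71.4%) had their highest value in replicate 1, against 53.7% of the 242 other genes called lower and 41.4% of all genes tested. In blank, 22 of 35 (62.9%) were highest in replicate 3, against 51.7% of the other genes called lower and 28.7% of all genes. The median member stood 0.30 above its group's mean in hydrogel replicate 1 and 0.30 above it in blank replicate 3, on the log2(CPM + 1) scale, where the median of all genes was 0.02 and -0.10. Blank replicate 2 held the lowest value of 17 members and the highest of 4. The order differed between terms: all 4 survival genes were highest in blank replicate 3, and 7 of 9 inflammation genes were, whereas the 8 hypoxia genes were divided 4 and 4 between blank replicates 1 and 3. Members share these libraries and are not independent, so the shares describe these 6 libraries. How far they follow from a choice of genes that were high in blank was not tested.

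**Figure D4:**
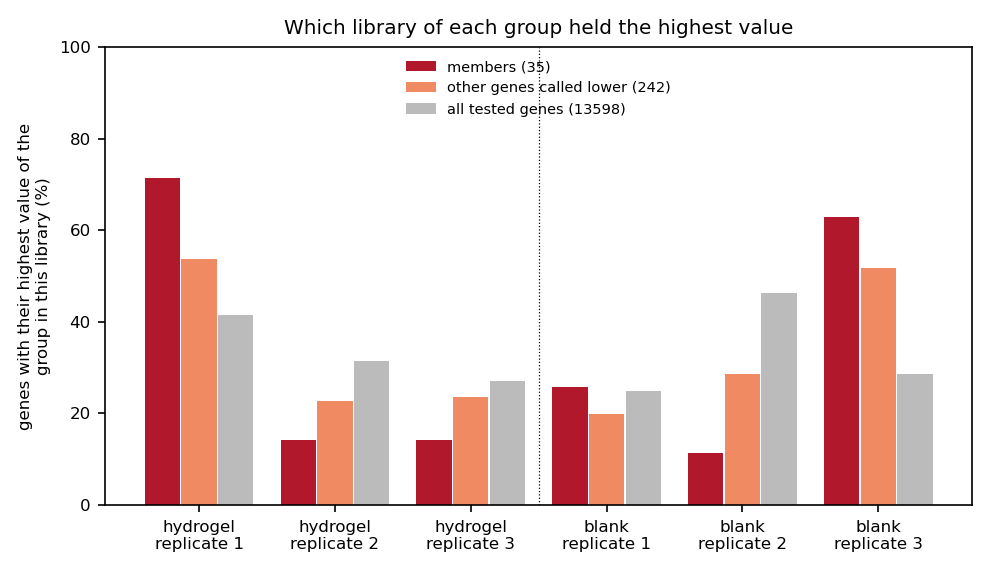
Percentage of genes whose highest value of the group lay in each library, for the 35 members, the 242 other genes called lower in hydrogel and all 13598 genes tested; the dotted line divides hydrogel from blank. Members peak in hydrogel replicate 1 (71.4%) and blank replicate 3 (62.9%), and the other genes called lower also peak most often in these 2 libraries (53.7% and 51.7%).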

How the data were processed

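Per the submitters' processing notes, reads were handled with HISAT2 2.2.1 and Trimmomatic 0.39, FastQC 0.11.9, DESeq2 1.34.0, GATK 4.3.0.0 and featureCounts 2.0.2, with no roles stated. The notes name the builds GRCh38 and mm10, while a build and annotation of rabbit and the use of strand were not given in the sources used here, so overlapping or near-identical genes may share reads. The deposited values are whole-number counts per gene, and the 6 tables per sample equalled the series table. The authors' deposited enrichment tables give p-values per term with the listed genes, and their deposited comparison table gives log2 fold changes and adjusted p-values. A further 439 columns of numbers per workbook matched no sample and were not used.

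The gene counts entered edgeR 4.0.16 in R 4.3.3 (quasi-likelihood, TMM, filterByExpr with a minimum count of 10, group as the term), adjusted over 13598 genes at 0.05, with a common biological coefficient of variation of 58.5%. Approximate standard errors are the log2 fold change over the root of F. The test was also run on counts simulated from the means and dispersions fitted to these libraries. Geometric means used a pseudocount of 1 CPM. Alternatives used DESeq2 1.42.0, limma 3.58.1, other scalings and filters, a replicate block and fits without 1 library. The plots come from matplotlib 3.10.9. Libraries of a group differed by a mean chi-square of at least 31.3 per gene, far above sampling noise. The lowest value was between hydrogel replicates 2 and 3, the most alike pair. All other pairs within a group lay from 133 to 288.

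By rule, the 2 members under the most terms (ties by mean CPM) carry their identifiers, and the others are described by their terms. With no statement of separate animals beyond the design text, p-values measure the spread between these libraries. The members and lists were chosen with earlier results of these data known. Lists of pathway and cell type symbols could not be used, and genome positions and sequences were not used here.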

Additional observations from a re-analysis of the deposited data

How the results depend on the processing

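The median log2 fold change of the members stayed negative in every fit, from -1.87 to -1.48 with 1 library left out, and all 35 members kept a negative value in each of those fits; 12 members moved by over 1.5 times in fold when 1 library was left out. The count that fell did not hold. It was 0 to 14 with 1 library left out, where 0.0144% to 1.76% of all genes were called lower. It was 35 with DESeq2, the tool of the authors' own comparison, where 5.62% were. With the replicate block it was 0 (edgeR; 33 members had an unadjusted p under 0.05), and 0 in each of the 7 terms, where 0.0368% and 7.41% of all genes were lower. The deviations of libraries with the same number correlated at -0.20, 0.01 and -0.10, which does not show a pairing. With so few libraries these values cannot exclude one either, and the labels do not say whether the numbers pair samples.

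By term, leaving out 1 library gave 0 to 6 for angiogenesis, 0 to 6 for its positive regulation, 0 to 4 for endothelial survival, 0 to 5 for hypoxia, 0 to 1 for wound healing, 0 to 2 for inflammation and 0 to 1 for interleukin-1. In the same order of terms, DESeq2 gave 13, 11, 4, 8, 4, 9 and 4, where 5.62% of all genes were called lower. These are all members of each term. The authors' own comparison used DESeq2, so these counts are no separate evidence beside the choice. Wound healing had 2 with DESeq2 size factors, upper-quartile factors or the stricter filter (1.95%, 2.37% and 2.33% of all genes). It had 0 with limma-voom (1.43% of all genes). In the main edgeR fit, a different tool, 4 were lower at an unadjusted p under 0.05 (10.7% of all genes). Without a filter, inflammation had 4 and interleukin-1 had 1 (1.59% of all genes). No member was higher in any fit. The 2 genes named by identifier passed with DESeq2, ENSOCUG00000011835 also without a filter, and ENSOCUG00000017741 also without blank replicate 2 (log2 fold change -1.41). A pseudocount of 5 CPM moved the members' geometric mean in hydrogel replicate 1 to 33.0 CPM (27.9 with 1 CPM). Upper-quartile factors moved the median log2 fold change of all genes to -0.11. With TMM-scaled CPM, chosen after seeing the data, 23 members (65.7%) were highest in hydrogel replicate 1 and 24 (68.6%) in blank replicate 3. The other genes called lower then had 50.8% and 58.7% there, and all genes 40.0% and 35.0%. Members highest in hydrogel replicate 3 became 8 and in blank replicate 2 became 2. Groups did not overlap for 33 members with this scaling, for which no share over all genes is given. With plain CPM every hydrogel library was below every blank library for 34 members and for 12.6% of all genes. The cause of these differences was not tested. Of the genes at the lowest depth, the smallest member count was 4, so counting error is large there.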

Other observations

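The authors' deposited table lists 1 further gene under response to interleukin-1 and interleukin-1-mediated signaling, in another cluster than the members. It had 75.2, 41.1 and 43.1 CPM in hydrogel replicates 1, 2 and 3, against 68.8, 244 and 87.2 CPM in blank replicates 1, 2 and 3. Blank replicate 2 was the high library here, where 3 of the 4 members of cellular response to interleukin-1 were highest in blank replicate 3, and the groups overlapped. Its log2 fold change was -1.31 ± 0.45 and it did not pass (edgeR quasi-likelihood test).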
